A study of Mus musculus with 4 samples.

Results

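The 10 heat shock protein genes described here encode the main inducible and constitutive chaperones of the mouse cell: Hspa1a, Hspa1b, Hspa8, Hsph1, Dnajb1, Dnaja1, Hsp90aa1, Hsp90ab1, Hspd1 and Hspe1. They were chosen by symbol from 32285 gene rows, all 10 have a row in both matrices, and all 10 passed the minimum of 5 counts per 1000000 UMIs (CPM, where a UMI is a unique molecular identifier that marks 1 counted RNA molecule) in every condition. They were followed in single regulatory T (Treg) cells sorted as live CD3+ CD4+ Foxp3+ cells of visceral fat from male mice. KO cells came from 4 mice aged 25 weeks that carry Foxp3YFP-cre and Srebf2flox/flox, so that Cre recombinase is made in Foxp3-expressing cells and removes Srebf2 there. WT cells came from 4 mice of the same age with Foxp3YFP-cre and Srebf2WT/WT, so both groups carry the Cre allele. HFD cells came from 5 Foxp3thy1.1 PpargTdt mice aged 23 to 27 weeks on a high-fat diet for 22 weeks. NCD cells came from 5 mice of the same strain, ages and feeding time on normal chow. Each condition was 1 pool of mice marked with 1 hashtag, an oligonucleotide-tagged antibody, and KO was mixed with WT, and HFD with NCD, before droplets were made. There is therefore no replicate check and no test, and every interval (95%) covers counting error only. Genes count as higher or lower from a log2 ratio of 0.32 in size, which sorts them by size without testing them. The preparation of each pool up to its hashtag and its genotype or diet cannot be told apart.

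Heat shock proteins fold new proteins and refold damaged ones. HSP70 proteins bind exposed chains with the help of J proteins, HSP110 exchanges their nucleotide, HSP90 acts on late folding steps of kinases and receptors, and the HSP60 and HSP10 ring works in mitochondria. The stress-inducible members are switched on by the transcription factor HSF1, and because warming, enzyme digestion and sorting of tissue can switch them on too, they are also used as signs of cell handling. Treg cells of visceral fat include a large subset with ST2, the receptor of interleukin-33 (gene Il1rl1), by which the cells were split below.

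The cells numbered 3956 KO, 3490 WT, 4512 HFD and 4938 NCD, with medians of 3640.5, 3589.5, 3193.5 and 3989 UMIs per cell and totals of 14010241 to 22200627 UMIs per condition. The targeted Srebf2 stood at 3.95 CPM in KO cells and 65.7 CPM in WT cells. All 5 Treg markers looked at (Foxp3, Il2ra, Ctla4, Ikzf2, Tnfrsf18) and all 5 T cell markers exceeded 5 CPM in every condition, and a Foxp3 UMI was found in 56.7% of KO, 55.4% of WT, 40.5% of HFD and 53.7% of NCD cells. Il1rl1 was found in 58.7% of KO, 71.0% of WT, 17.6% of HFD and 78.1% of NCD cells. Of the defining markers of other cells, Cd79a, Lyz2 and Cd8a are at 0 by the rule for cells. Summed erythroid markers stood at 82.4 CPM in KO and 461 CPM in WT cells, and at 289.9 CPM in HFD and 87.4 CPM in NCD cells. The 4 stromal markers summed to 62.6 CPM in HFD cells and 0.90 CPM in NCD cells. The part of these other cells in the heat shock levels was not tested. Of the barcodes, 135 occur in both libraries, 87 of them among the kept cells.

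The inducible HSP70 genes Hspa1a (chr17:34969359-34972156) and Hspa1b (chr17:34956429-34959238, both GRCm38.p6) are neighbouring copies, and their start regions are shown because their likeness is the reason for giving the pair as a sum. The RefSeq windows, 250 bases before each start and read on the minus strand, cover chr17:34972157-34972406 and chr17:34959239-34959488. Capitals mark a heat shock element core, searched as GAANNTTC or TTCNNGAA, each of which reads the same on both strands.
Hspa1a: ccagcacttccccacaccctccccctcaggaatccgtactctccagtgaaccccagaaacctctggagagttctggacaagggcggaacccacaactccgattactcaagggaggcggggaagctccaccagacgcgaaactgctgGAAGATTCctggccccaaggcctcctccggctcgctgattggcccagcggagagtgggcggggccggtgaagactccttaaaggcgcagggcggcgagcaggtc
Hspa1b: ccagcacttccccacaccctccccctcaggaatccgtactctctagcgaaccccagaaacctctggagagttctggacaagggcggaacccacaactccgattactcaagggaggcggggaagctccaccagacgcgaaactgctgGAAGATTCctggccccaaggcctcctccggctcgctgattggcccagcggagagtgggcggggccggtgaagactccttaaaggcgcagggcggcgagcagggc
With positions counted from 1 at the 5′ end of the window, the pair differed before the start by the substitutions C44T, T47C and T249G (Hspa1a base first), and over 300 bases, 50 of them after the start, by 4 substitutions (98.7% identical). Both hold 1 core, beginning 104 bases before the start. These windows lie mostly before the start and do not show how alike the transcripts are. How reads that match both copies were counted is not known here. Single values of Hspa1a and Hspa1b are therefore uncertain, and their sum may be too.

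Hspd1 and Hspe1, the mitochondrial ring and its lid, lie head to head on chromosome 1 (chr1:55077833-55088243 and chr1:55088148-55091317). The 215 bases between the outer Hspd1 start and the Hspe1 start, chr1:55087933-55088147 on the plus strand, are shown because both genes share them; a second Hspd1 start lies inside Hspe1, so that the genes overlap at their ends. The strand setting of the counting is not known here, and reads in that overlap are uncertain. The windows of Dnaja1 (chr4:40722218-40722467, plus strand) and Hsph1 (chr5:149636337-149636586, minus strand) are shown as those of the other members with a core.
Hspd1-Hspe1: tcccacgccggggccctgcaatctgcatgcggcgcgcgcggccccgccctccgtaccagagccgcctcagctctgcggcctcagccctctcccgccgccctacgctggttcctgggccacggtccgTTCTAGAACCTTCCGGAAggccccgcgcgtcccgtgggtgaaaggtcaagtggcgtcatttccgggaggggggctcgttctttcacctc
Dnaja1: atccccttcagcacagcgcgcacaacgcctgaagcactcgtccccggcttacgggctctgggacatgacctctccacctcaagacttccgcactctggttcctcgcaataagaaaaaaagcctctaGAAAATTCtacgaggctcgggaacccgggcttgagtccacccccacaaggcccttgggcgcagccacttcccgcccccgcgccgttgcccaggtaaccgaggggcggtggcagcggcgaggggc
Hsph1: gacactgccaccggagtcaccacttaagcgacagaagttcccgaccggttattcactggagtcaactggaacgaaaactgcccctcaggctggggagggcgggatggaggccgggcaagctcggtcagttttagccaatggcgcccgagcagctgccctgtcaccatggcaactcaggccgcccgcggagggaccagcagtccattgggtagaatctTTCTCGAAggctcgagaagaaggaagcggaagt
The shared stretch held 3 overlapping cores, which form 2 overlapping matches to a longer pattern, a core continued by a further unit (GAANNTTC then NNGAA, or TTCNNGAA then NNTTC). A core was present in at least 1 window of 6 of the 7 members with a window in the RefSeq table used here, all but Dnajb1, whereas 14.5% of 27025 genes had one in a window (12.8% of 32851 windows). The longer pattern occurred in the windows of Hspd1 and Hspe1 and of 0.514% of genes. A match describes letters only and says nothing of binding. The remaining members lie at chr8:83608175-83612653 (Dnajb1), chr9:40801276-40805202 (Hspa8), chr12:110691036-110696395 (Hsp90aa1) and chr17:45567778-45573261 (Hsp90ab1), and the genes Dnaja1 and Hsph1 at chr4:40722468-40734965 and chr5:149616843-149636498.

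Summed over all 10 members, heat shock transcripts took 6302 CPM in KO cells (95% interval 6264 to 6340) and 6644 CPM in WT cells (6602 to 6687), and 6359 CPM in HFD cells (6323 to 6395) and 8108 CPM in NCD cells (8070 to 8145). The summed level was thus highest in NCD cells and lay close together in the other conditions. The members did not share 1 order of conditions. The inducible pair, Dnajb1, Dnaja1 and Hspa8 were lowest in HFD cells and highest in NCD cells, whereas Hspd1 and Hspe1 were highest in HFD cells, as the plot of levels by condition shows. The KO and WT pools and the HFD and NCD pools were separate experiments with other mice, so levels across them are set side by side only.

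**Figure D1:**
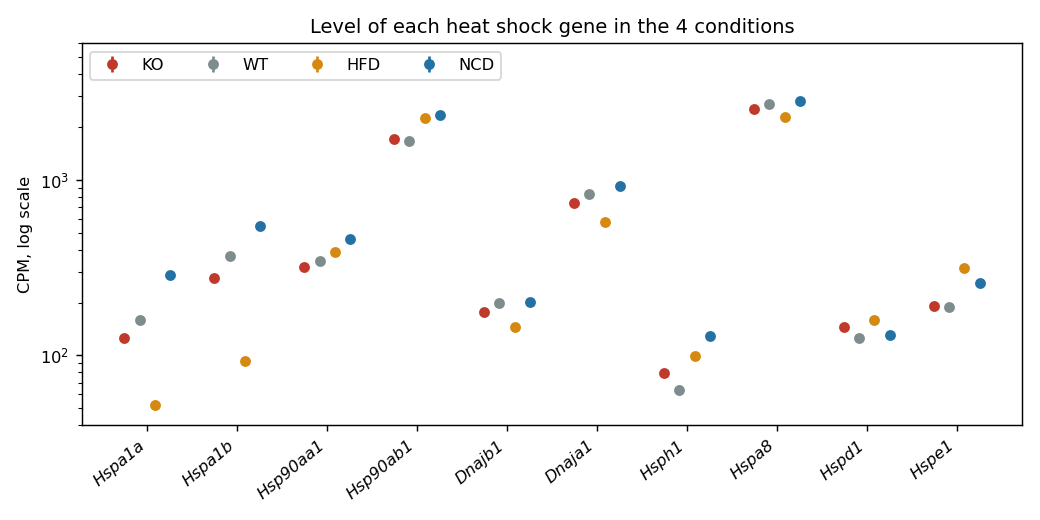
Level of each of the 10 genes (CPM, log axis) in KO, WT, HFD and NCD cells, 1 point per condition with its 95% counting interval, which is often smaller than the point. Hspa1a and Hspa1b span the widest range, with HFD at 52.3 and 92.3 CPM and NCD at 285 and 548 CPM.

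The first comparison asked how heat shock genes differ in Treg cells that lack Srebf2, the transcription factor of cholesterol synthesis. The inducible HSP70 genes were somewhat lower in KO cells. Hspa1a stood at 126 CPM in KO and 159 CPM in WT cells, and Hspa1b at 276 CPM in KO and 370 CPM in WT cells. Their sum was 402 CPM in KO cells (391.97 to 411.4) and 530 CPM in WT cells (518 to 542), a log2 ratio of -0.40 (-0.45 to -0.35), so that the intervals of the levels do not overlap. Hsph1, the HSP110 that recharges HSP70, was the 1 member higher by the rule of size, at 79.5 CPM in KO and 63.2 CPM in WT cells (log2 ratio 0.33, 0.21 to 0.46). With 2 members lower and 1 higher of 10, the counts stand beside 4.9% of 9822 genes lower and 5.41% higher, and the median log2 ratio of the members was -0.10 beside 0.00 for all genes. With strict hashtags or equal weights of the Il1rl1 classes, 1 member was lower (beside 5.15% and 4.68% of genes) and 0 were higher (beside 5.49% and 4.49%).

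The other 7 members stayed within the rule between KO and WT cells. The constitutive HSP70, Hspa8, stood at 2551 CPM in KO and 2694 CPM in WT cells. Hsp90aa1, the inducible HSP90, stood at 320.3 CPM in KO and 347 CPM in WT cells, and its constitutive counterpart Hsp90ab1 at 1699.9 CPM in KO and 1669 CPM in WT cells. The J proteins, which hand substrates to HSP70, were slightly lower in KO cells, with log2 ratios of -0.18 for Dnajb1 (-0.25 to -0.10) and -0.17 for Dnaja1 (-0.21 to -0.13). Of the mitochondrial pair, Hspd1 had a log2 ratio of 0.21 (0.12 to 0.30) and Hspe1 of 0.03 (-0.04 to 0.11), so a difference in Hspe1 was not detectable at this depth.

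The second comparison asked how the same genes differ in Treg cells after high-fat feeding. The inducible HSP70 pair was the member group that differed most. Hspa1a stood at 52.3 CPM in HFD cells (49.1 to 55.7) and 285 CPM in NCD cells (279 to 293), 5.46-fold lower. Hspa1b stood at 92.3 CPM in HFD cells (88.0 to 96.8) and 548 CPM in NCD cells (538 to 558), 5.93-fold lower. The sum was 145 CPM in HFD and 833 CPM in NCD cells, a log2 ratio of -2.53 (-2.59 to -2.47), and it lay far outside the counting error. The partners of HSP70 were lower too, by less. Dnaja1 stood at 575 CPM in HFD and 918 CPM in NCD cells (log2 ratio -0.67, -0.71 to -0.64), Dnajb1 at 145 CPM in HFD and 201 CPM in NCD cells (-0.47, -0.54 to -0.40), and Hsph1 at 99.5 CPM in HFD and 128 CPM in NCD cells (-0.37, -0.45 to -0.28). These 5 members are the ones counted as lower, beside 15.8% of 10024 genes, and 0 members were higher, beside 23.6% of genes. Both the member counts and these shares change with the processing, as given further below.

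Hspa8 just missed the rule, with 2279 CPM in HFD and 2828 CPM in NCD cells (log2 ratio -0.31, -0.33 to -0.29). The HSP90 genes differed less, with log2 ratios of -0.26 for Hsp90aa1 (-0.30 to -0.21) and -0.06 for Hsp90ab1 (-0.08 to -0.04). The mitochondrial pair lay on the other side. Hspe1 stood at 316 CPM in HFD cells (308 to 324) and 257 CPM in NCD cells (251 to 264), and Hspd1 at 158 CPM in HFD and 131 CPM in NCD cells, with log2 ratios of 0.29 and 0.27 that stayed within the rule. The median over the 10 members was -0.34, beside 0.08 for all genes.

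**Figure D2:**
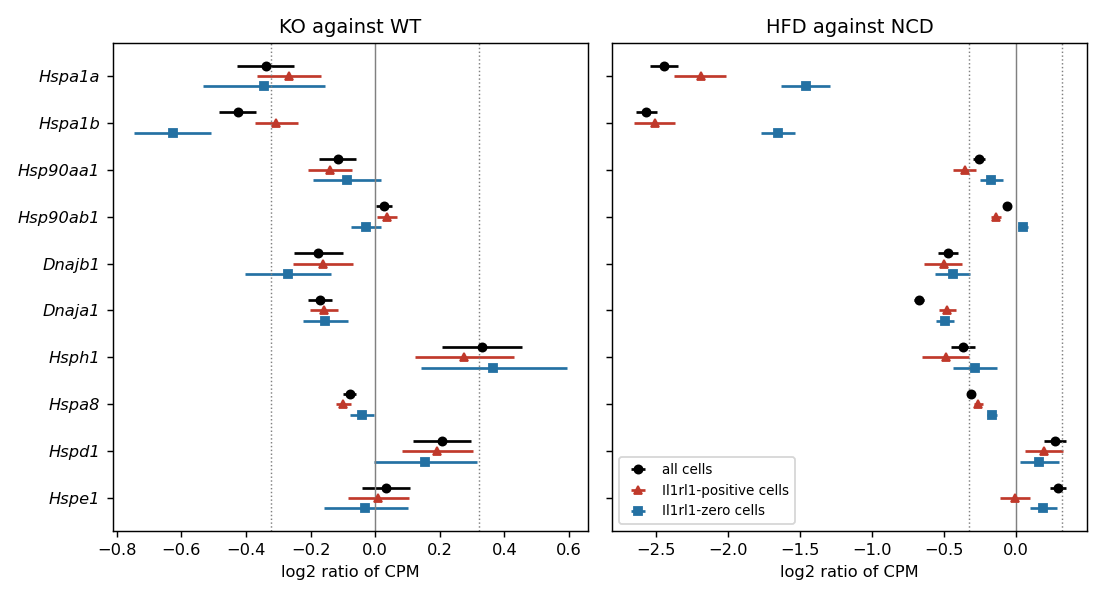
log2 ratio of each gene for KO against WT (left) and HFD against NCD (right), in all cells, Il1rl1-positive cells and Il1rl1-zero cells, with 95% counting intervals and dotted lines at the rule of size (0.32 either way). The x axes differ in scale. Hspa1a and Hspa1b stand apart in the diet comparison, at -2.45 and -2.57 in all cells.

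Since Il1rl1-positive cells made up 17.6% of HFD and 78.1% of NCD cells, the comparison was repeated within each class. In Il1rl1-positive cells the Hspa1a and Hspa1b sum was 175 CPM in HFD and 918 CPM in NCD cells (log2 ratio -2.39, -2.51 to -2.28). In Il1rl1-zero cells it was 137 CPM in HFD and 412 CPM in NCD cells (-1.59, -1.69 to -1.49). The pair was lower in HFD cells of both classes, and whether the size differs between the classes was not tested. Dnaja1 had log2 ratios of -0.48 in Il1rl1-positive and -0.49 in Il1rl1-zero cells, against -0.67 in all cells. Hspe1 had -0.0039 in Il1rl1-positive cells (-0.11 to 0.10) and 0.19 in Il1rl1-zero cells (0.10 to 0.29). Counted by the rule, 6 members were lower in Il1rl1-positive cells, beside 14.5% of genes, and 4 in Il1rl1-zero cells, beside 18.8% of genes.

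Between KO and WT cells the pair had a log2 ratio of -0.29 in Il1rl1-positive cells (-0.35 to -0.24) and -0.54 in Il1rl1-zero cells (-0.64 to -0.44). In Il1rl1-positive cells 0 members passed in either direction, beside 6.45% of genes lower and 5.4% higher. In Il1rl1-zero cells Hspa1a and Hspa1b were lower and Hsph1 was higher, beside 10.1% of genes lower and 11.2% higher. Hspa1b stood there at 207.5 CPM in KO and 320.3 CPM in WT cells.

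Within each condition, the summed level of the inducible pair was higher in Il1rl1-positive than in Il1rl1-zero cells, but the share of cells with the pair was not higher in every condition. The sum was 456 against 301.6 CPM in KO, 559 against 439.7 CPM in WT, 175 against 137 CPM in HFD and 918 against 412 CPM in NCD cells. The log2 ratios were 0.60 in KO, 0.35 in WT, 0.35 in HFD and 1.15 in NCD. Of cells thinned to 2000 UMIs, a UMI of the pair was found in 24.4% of Il1rl1-positive and 22.5% of Il1rl1-zero KO cells, 28.7% and 29.7% in WT, 15.2% and 15.7% in HFD, and 37.3% and 23.9% in NCD. The intervals of these shares overlap in KO, WT and HFD. With the mean of the cells' own CPM, Hspa1b in HFD had a log2 ratio of -0.03, against 0.25 from the sums, and Hspa1a had 0.25 in both WT and HFD, against 0.53, below the rule of size. With the split taken after thinning, Hspa1a had 0.29 in KO, 0.28 in WT and 0.67 in NCD, against 0.60, 0.53 and 1.26, so that it no longer passed the rule in KO and WT. Hspe1 went the other way in every condition, with log2 ratios of -0.32 in KO, -0.36 in WT, -0.41 in HFD and -0.21 in NCD. Dnaja1 was slightly higher in Il1rl1-positive cells, by 0.13 in KO and WT, 0.31 in HFD and 0.30 in NCD. By the rule of size, Hspa1a and Hspa1b were higher in KO (beside 10.6% of genes) and in NCD (11.6%), and Hspa1a alone in WT (12.4%) and in HFD (14.4%). Hspe1 was lower in WT (beside 20.4% of genes) and in HFD (15.4%), and 0 members were lower in KO (23.4%) and NCD (26.1%). In KO, Hspe1 just missed the rule, at -0.3202 against an exact limit of 0.3219 in size.

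The split rests on detecting Il1rl1 and so on depth. Il1rl1-positive cells had medians of 3772 to 4221 UMIs and Il1rl1-zero cells of 3046 to 3166. After each cell was thinned to 2000 UMIs, with 311 KO, 307 WT, 711 HFD and 286 NCD cells too shallow and left out, Il1rl1 was found in 48.3% of KO, 59.0% of WT, 14.5% of HFD and 67.3% of NCD cells. In cells with 2 or more UMIs of the B cell gene Cd79a, which had been left out above, it was found after thinning in 12.3% of KO, 21.7% of WT, 8.77% of HFD and 24.4% of NCD cells, at median depths before thinning of 6639, 6255.5, 4455.5 and 7737 UMIs. Hashtags cannot find doublets within a condition, and the part of doublets and free RNA in the Il1rl1 split was not tested.

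Cells differed strongly in the inducible pair. Of the cells thinned to 2000 UMIs, a Hspa1a or Hspa1b UMI was found in 23.7% of KO (22.3 to 25.1), 29.0% of WT (27.4 to 30.6), 15.6% of HFD (14.4 to 16.8) and 34.7% of NCD cells (33.3 to 36.0). Without thinning the shares were 30.1% in KO, 35.4% in WT, 22.5% in HFD and 42.4% in NCD cells. In the Cd79a cells the thinned shares were 45.6% in KO, 31.5% in WT, 26.3% in HFD and 29.8% in NCD. These genes are active in all cell types, so no class of cells gives a level of free RNA for them.

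The inducible transcripts were spread unevenly over the cells. Cells with 8 or more UMIs of the pair per 2000 made up 2.77% of KO, 3.80% of WT, 0.368% of HFD and 7.55% of NCD cells, that is 101, 121, 14 and 351 cells. The tenth of cells with the highest counts held 78.1% of the pair's UMIs in KO, 72.3% in WT, 82.8% in HFD and 71.3% in NCD. This share depends on how sparse a gene is: in WT cells it was 96.2% for Hsph1 and 58.5% for Hspd1. The variance of the pair's UMIs per cell was 7.97 times the mean in KO, 7.76 in WT, 4.51 in HFD and 11.9 in NCD, where the median gene had 1.04 to 1.06. For Hspa8 the same measure was 2.14 in KO, 2.41 in WT, 1.88 in HFD and 2.26 in NCD, and for Hspe1 1.26, 1.19, 1.30 and 1.21. The counting intervals treat UMIs as independent and are therefore too narrow for the inducible pair.

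In the cells with 8 or more UMIs of the pair, Dnajb1, Hsp90aa1, Hsp90ab1 and Hspa8 were higher than in cells with 0 in every condition. CPM here leaves the pair out of the total. Dnajb1 stood at 434 CPM in KO, 424 CPM in WT, 503 CPM in HFD and 474 CPM in NCD cells of that class, against 171, 183, 154 and 166 CPM in cells with 0 UMIs of the pair. Hsph1 stood at 294 CPM (255 to 337) in NCD cells of that class and 91.0 CPM in NCD cells with 0, at 234 CPM (172 to 311) in KO cells of that class and 73.1 CPM in KO cells with 0, and at 395 CPM (197 to 708) in HFD cells of that class and 95.8 CPM in HFD cells with 0. In WT cells of that class it had 17 UMIs, or 70.7 CPM (41.2 to 113), an interval that spans the 54.4 CPM of WT cells with 0. Dnaja1 had 1210.3 CPM (1075 to 1358) in WT cells of that class and 818 CPM in WT cells with 0, and 1151 CPM in NCD cells of that class and 919 CPM in NCD cells with 0. It had 693 CPM (582 to 818) in KO cells of that class and 789 CPM in KO cells with 0, and 683 CPM (411 to 1067) in HFD cells of that class and 623 CPM in HFD cells with 0, where the intervals span the level with 0. Hsp90aa1 stood at 449 CPM in KO, 665 CPM in WT, 611 CPM in HFD and 946 CPM in NCD cells of that class, against 293, 303.1, 347 and 361 CPM in cells with 0. The HFD class holds 14 cells. With fewer UMIs of the pair, Dnaja1 in KO cells lay lower than with 0. It stood at 695 CPM (630 to 764) with 1, 642 CPM (576 to 713) with 2 to 3 and 641 CPM (562 to 727) with 4 to 7. In WT cells Dnaja1 stood at 883 CPM (814 to 957) with 1 and 960 CPM (877 to 1049) with 2 to 3.

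**Figure D3:**
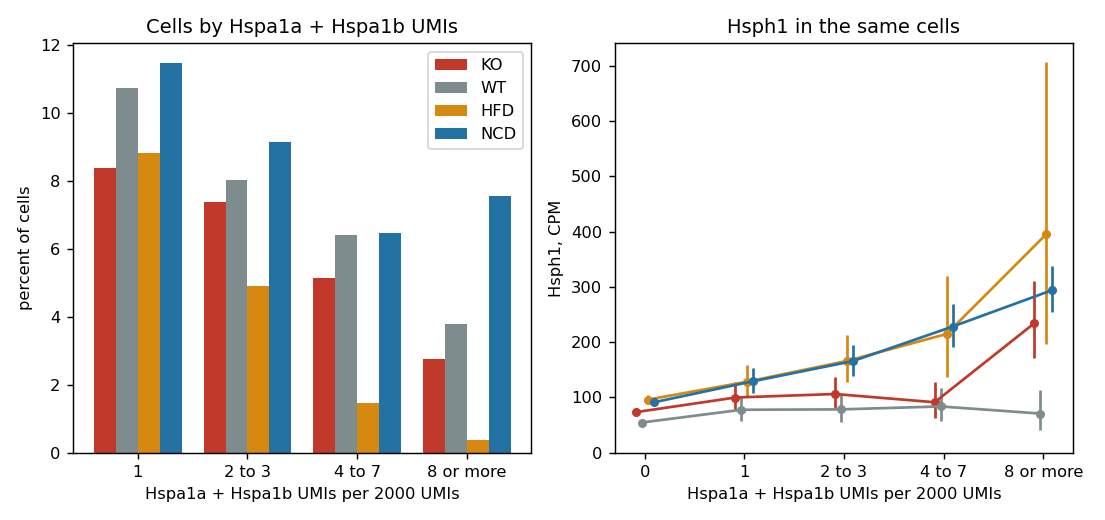
Left, percent of cells of each condition with 1, 2 to 3, 4 to 7 or 8 and more Hspa1a + Hspa1b UMIs after thinning to 2000 UMIs (cells with 0 not drawn). Right, Hsph1 level (CPM with 95% counting interval) in the same classes, which lies at 294 CPM in NCD and 70.7 CPM in WT cells with 8 or more.

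Correlations between members across single cells, on log2(thinned count + 1), were low apart from 2 pairs. Hspa1a and Hspa1b had Pearson's r of 0.46 in KO, 0.46 in WT, 0.38 in HFD and 0.56 in NCD cells. Hsp90ab1 and Hspa8, both constitutive, had 0.30 in KO, 0.29 in WT, 0.35 in HFD and 0.31 in NCD. The median over the 45 pairs of members was 0.08 in KO, 0.09 in WT, 0.09 in HFD and 0.12 in NCD, over 3183 to 4652 cells that share a library and a depth. Hspd1 and Hspe1, which share a start region, had 0.10 in KO, 0.05 in WT, 0.16 in HFD and 0.11 in NCD. The sparse counts limit how high such values can be.

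**Figure D4:**
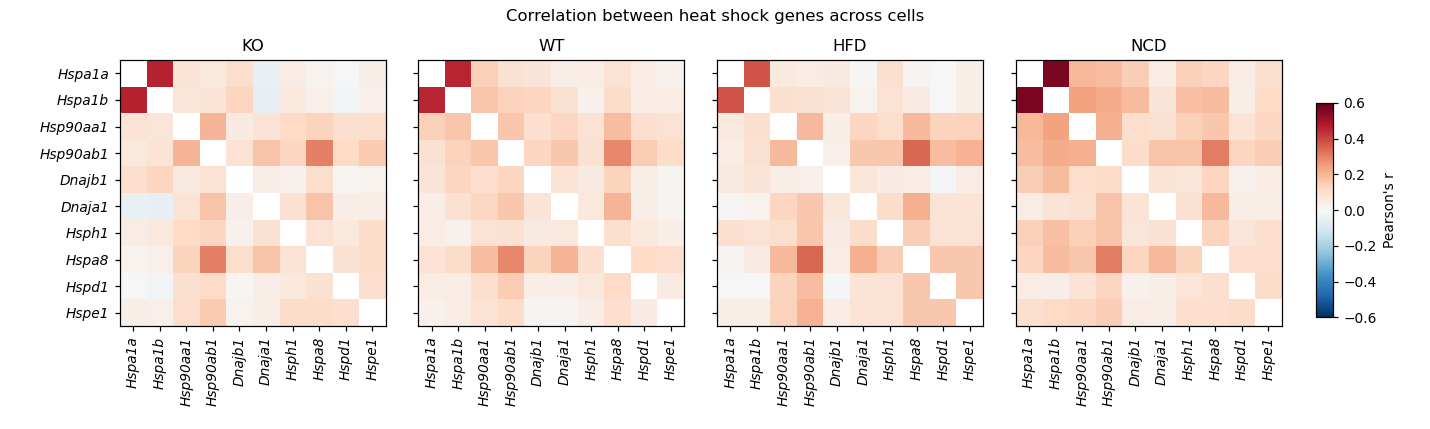
Pearson's r between each pair of the 10 genes across thinned cells of KO, WT, HFD and NCD (colour, white at 0 and along the empty diagonal). The strongest values are Hspa1a with Hspa1b (0.38 to 0.56) and Hsp90ab1 with Hspa8 (0.29 to 0.35).

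The balance within gene pairs differed by a few percentage points within each comparison. Hspa1b gave 68.7% of the UMIs of the inducible pair in KO cells (67.5 to 69.8) and 69.9% in WT cells (68.9 to 71.0), and 63.8% in HFD cells (62.0 to 65.7) and 65.7% in NCD cells (65.1 to 66.4). Hsp90ab1 gave 84.1% of the HSP90 UMIs in KO and 82.8% in WT cells, and 85.4% in HFD and 83.6% in NCD cells. Hspe1 gave 57.0% of the mitochondrial pair in KO and 59.9% in WT cells, and 66.6% in HFD and 66.3% in NCD cells. These shares count UMIs per gene and are not corrected for length or capture.

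Immediate early genes, which tissue digestion is known to switch on, were set beside the members (Fos, Fosb, Jun, Junb, Jund, Egr1, Atf3, Ier2, Ier3, Dusp1, Zfp36, Nr4a1, Btg2, Klf6, Nfkbia and Socs3). They moved with the diet comparison: 15 of 16 were lower in HFD cells (beside 15.8% of all genes) and 1 higher (beside 23.6%), with a median log2 ratio of -1.67 and a summed level of 10129 CPM in HFD and 27556 CPM in NCD cells. Atf3 had 27.7 CPM in HFD and 347 CPM in NCD cells, Egr1 73.2 CPM in HFD and 891 CPM in NCD cells, and Fosb 72.2 CPM in HFD and 496 CPM in NCD cells. In KO cells 4 of 16 were lower (beside 4.9% of all genes) and 0 higher (beside 5.41%), with a median of -0.12 and sums of 27501 CPM in KO and 30525 CPM in WT cells. Among them were Atf3 (log2 ratio -0.46), Fos (-0.40) and Klf6 (-0.38). The list was also higher in Il1rl1-positive than in Il1rl1-zero cells, for 14 of 16 genes in KO and WT and 15 of 16 in HFD and NCD, beside 10.6% to 14.4% of all genes. The part of cell isolation in the heat shock levels was not tested.

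The members were therefore also read in cells of like early response level, counted as the 16 genes' UMIs after thinning, with those UMIs left out of the total. The median was 50 early response UMIs in KO, 62 in WT, 16 in HFD and 53 in NCD cells. In cells with 31 to 45 of them the inducible pair stood at 123 CPM in 428 HFD cells and 1379 CPM in 485 NCD cells, a log2 ratio of -3.485 (-3.795 to -3.20). In cells with 61 or more it stood at 251.5 CPM in HFD and 829 CPM in NCD cells (-1.71, -2.00 to -1.45), and in cells with 15 or fewer at 145 CPM in HFD and 535 CPM in NCD cells (-1.89, -2.04 to -1.73). Toward the lowest counts the difference was smaller. With 3 to 5 early response UMIs the pair stood at 159 CPM in 346 HFD cells (131 to 192) and 219 CPM in 181 NCD cells (173 to 273), and with 1 to 2 at 131 CPM in 130 HFD cells (90.6 to 183) and 191 CPM in 63 NCD cells (122 to 284). The log2 ratios there were -0.46 (-0.89 to -0.02) at 3 to 5 and -0.55 (-1.34 to 0.28) at 1 to 2. With 6 to 10 it was -1.73 (-2.00 to -1.48). The counting intervals are too narrow for the pair, so one that ends near 0, as at 3 to 5, may span it.

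Within the conditions the pair did not follow the early response evenly. In NCD cells it went up to 1379 CPM at 31 to 45 early response UMIs and was at 829 CPM at 61 or more, and WT cells had 1032 CPM at 46 to 60 and 482 CPM at 61 or more. Between KO and WT cells the log2 ratio of the pair was 0.09 (-0.20 to 0.39) at 15 or fewer, -0.59 (-0.77 to -0.42) at 31 to 45, -0.65 (-0.80 to -0.50) at 46 to 60 and -0.09 (-0.20 to 0.02) at 61 or more. With 6 to 10 the pair was higher in KO, at 306 CPM in 187 KO cells (252 to 368) and 151 CPM in 113 WT cells (105 to 211). These counting intervals are too narrow for the pair, and whether this difference exceeds the spread among cells was not tested. Dnaja1 behaved differently, with a steady increase over the classes in every condition. It stood at 454 CPM in KO, 465 CPM in WT, 521 CPM in HFD and 549.6 CPM in NCD cells with 15 or fewer, and at 982 CPM in KO, 1059.7 CPM in WT, 1082 CPM in HFD and 1273 CPM in NCD cells with 61 or more. Its log2 ratio of HFD against NCD was between -0.23 and -0.08 within the 5 classes, beside -0.67 in all cells. Hspe1 had a log2 ratio of 0.34 at 15 or fewer and of -0.57 at 31 to 45 early response UMIs in HFD against NCD cells.

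**Figure D5:**
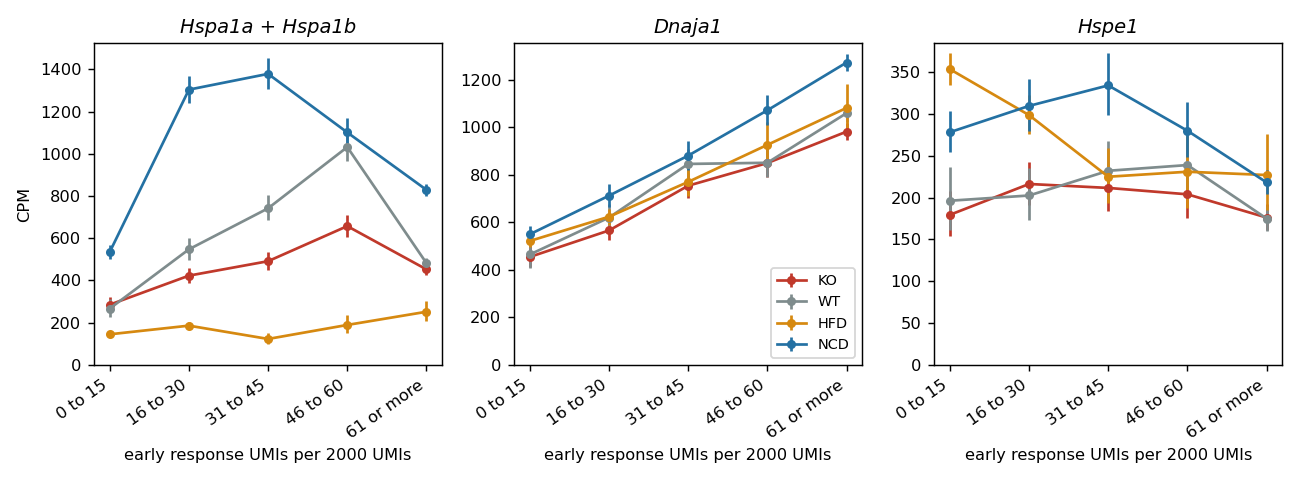
Level of Hspa1a + Hspa1b, Dnaja1 and Hspe1 (CPM without the early response genes, 95% counting interval) in cells grouped by early response UMIs per 2000 UMIs, 1 line per condition. The inducible pair stays at or under 251.5 CPM in HFD cells and reaches 1379 CPM in NCD cells, while Dnaja1 increases in all 4 conditions.

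Most genes of the other chaperone lists stayed within the rule of size in both comparisons, while single genes differed as much as Dnaja1 between HFD and NCD. The lists were heat shock factors, small heat shock proteins, other cytosolic HSP70, HSP110 and J proteins, cochaperones, mitochondrial chaperones, the chaperonin TRiC, which folds actin and tubulin, and chaperones of the endoplasmic reticulum (ER). Of 18 cochaperones of HSP70 and HSP90 at 5 CPM or more, 1 was lower in KO cells, Bag3, an HSP70 partner in protein clearance that HSF1 induces, at 31.7 CPM in KO and 45.3 CPM in WT cells (log2 ratio -0.51, -0.68 to -0.34). In HFD cells 2 of the 18 were lower and 1 higher: Bag3 at 35.4 CPM in HFD and 46.6 CPM in NCD cells (-0.40), Fkbp5, an HSP90 partner at steroid receptors, at -0.33, and Ppid, a cyclophilin that binds HSP90, at 0.35. Ahsa2 and Stip1 had log2 ratios of 0.20 and 0.17 in KO cells. The medians of the list were 0.03 in KO and 0.04 in HFD cells.

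Hsf1, the main heat shock factor, stood at 51.3 CPM in KO and 58.6 CPM in WT cells, and at 51.6 CPM in HFD and 55.9 CPM in NCD cells (log2 ratio -0.12, -0.24 to 0.01). Hsf2 stood at 11.2 CPM in HFD and 18.0 CPM in NCD cells (-0.69, -0.94 to -0.44). The 3 measured genes of the factor list were Hsf1, Hsf2 and Hsbp1, which encodes a binding protein of the factors. Only Hsf2 of these 3 was counted as lower in HFD, and in KO cells 0 of 3 passed. Of the 9 genes listed by name as small heat shock proteins only 2 were measured. Hspb1 was higher in KO cells, at 11.7 CPM in KO and 8.14 CPM in WT cells (0.52, 0.18 to 0.87), and lower in HFD cells, at 5.28 CPM in HFD and 8.06 CPM in NCD cells (-0.61, -0.98 to -0.25), and Hspb11 passed in neither.

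Of 13 other cytosolic HSP70, HSP110 and J proteins, 0 passed in KO cells, and in HFD cells Hspa2 was lower (-0.78, at 8.63 CPM in HFD and 14.9 CPM in NCD cells) and Hspa14, a ribosome-bound HSP70, higher (0.45). Of the 8 TRiC subunits 0 passed in KO cells, with a median of 0.04, and 1 in HFD cells, Cct8 at 183 CPM in HFD and 146 CPM in NCD cells (0.33), with a median of 0.21 and all 8 above 0. Of the 9 other mitochondrial chaperones 0 passed in either comparison, with medians of -0.07 in KO and 0.05 in HFD cells. Of the 15 ER chaperones, Creld2 was lower in KO cells (-0.44, -0.66 to -0.22) and Dnajc3, a J protein partner of the ER HSP70, higher in HFD cells, at 120.5 CPM in HFD and 75.6 CPM in NCD cells (0.67, 0.58 to 0.76), with medians of -0.04 in both. These counts stand beside the same shares of all genes as above.

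The genes whose counts across cells were most like the summed members were sought among 5555 genes at 20 CPM or more in all 4 conditions, by the lowest of the 4 correlations. The first 10 were Chchd2, Jund, Zfp36, Ptma, Stip1, Nme1, Nmbr, St13, Ppia and Actg1, and the lowest r of the first was 0.11. Jund and Zfp36 belong to the early response list, and Stip1 and St13 to the cochaperones. Values of this size in sparse counts describe the ranking only.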

How the data were processed

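Single-cell RNA from 2 mixed pools was counted per gene and cell by the authors. The deposited matrices hold whole-number counts, taken here as raw UMI counts, with the hashtag counts as rows of the same matrix. Cell Ranger is given by the file headers as version 7.1.0 (KO and WT) and 7.0.1 (HFD and NCD); the submitters' processing notes list 7.0.1 with mm10.

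The 9036 and 11456 barcodes were reduced to those with at least 500 genes and less than 10% of counts from mitochondrial genes (8595 and 11134), to those with 90% or more of the hashtag counts from 1 hashtag (7785 and 10326), and to those with Cd79a, Lyz2 and Cd8a at 0 (7446 and 9450). Droplets in which no hashtag reached 90% were thereby removed, and those kept can still hold some counts of the other hashtag. No doublet caller was run. Counts were summed per condition and given as CPM with exact Poisson intervals. Ratios carry 0.5 added counts and exact intervals from the binomial split, and shares have Clopper-Pearson intervals, at 95%. A gene entered a comparison if 1 of the conditions reached 5 CPM. Thinning drew 2000 UMIs per cell with a fixed seed. Ratios and intervals were tried on simulated Poisson counts with known folds. Such counts lack the extra spread among cells of the inducible pair, so they cannot show whether its intervals are wide enough. Alternatives were stricter hashtags and cell quality, left-out cells kept, Foxp3 cells, thinning, the mean of cells, TMM (edgeR 4.0.16), DESeq2 1.42.0 size factors, no minimum, equal weight of Il1rl1 classes and a limit on early response UMIs. Added after seeing the data were cells with 16 to 45 early response UMIs, cells without Mki67 or Top2a, the Il1rl1 split after thinning, the 5 early response classes and the genes most like the inducible pair. Named genes are all members, up to 3 genes per list and comparison farthest from a log2 ratio of 0, the 10 genes most like the members, and Srebf2, Foxp3 and Il1rl1. The members and lists were chosen with earlier results of these data known. Python 3.11.15, scipy 1.17.1 and R 4.3.3 were used. Sequences are from RefSeq tables of GRCm38.p6.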

Additional observations from a re-analysis of the deposited data

Results flagged for a closer look

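Hsp90ab1, the constitutive HSP90, differed in direction between the classes of cells in the diet comparison: its log2 ratio of HFD against NCD was -0.13 in Il1rl1-positive cells (-0.17 to -0.10) and 0.048 in Il1rl1-zero cells (0.01 to 0.08). Each interval lies on its own side of 0. The difference between the classes was not tested, both values are within 0.32 of 0, and there is 1 pool per diet.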

How the results depend on the processing

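The lower level of Hspa1a and Hspa1b in HFD cells kept its direction under all alternatives, with log2 ratios of -3.04 to -0.66 and -2.96 to -0.62. This describes the sign only: in the class with 1 to 2 early response UMIs, the interval of the pair spanned 0, as given above. The median of HFD against NCD (-0.34) was -0.28 with Cd79a, Lyz2 and Cd8a cells kept, -0.43 in Foxp3 cells, -0.43 with TMM and -0.46 with DESeq2 size factors, which move the median of all genes to -0.04, against 0.08 with totals. With TMM 20.8% of genes were lower and 17.6% higher in HFD, and with DESeq2 size factors 22.1% and 16.5%. Over all settings, 2 to 7 members were lower in HFD, beside 13.5% to 47.6% of genes. Members higher in HFD numbered 0 to 4, beside 15.8% to 33.7% of genes. At most 2 early response UMIs left 12 KO, 8 WT, 148 HFD and 68 NCD cells. There the medians were 0.19 for HFD against NCD and 0.21 for KO against WT, 4 members were higher and 2 lower in HFD, beside 26.7% and 47.6% of genes, and 4 were higher and 3 lower in KO, beside 39.7% and 50.3%. There Dnaja1 (0.13), Hsph1 (0.56), Hspa8 (0.39) and Hsp90ab1 (0.25) in HFD and Hspa1b (1.00), Hsp90aa1 (1.85), Hspa8 (0.21), Hspd1 (-0.05) and Hspe1 (-0.95) in KO changed sign. With 16 to 45 such UMIs the KO median was 0.019, and Hspd1 (-0.06) and Hspe1 (-0.20) in HFD and Dnajb1 (0.07), Hspa8 (0.10) and Hspe1 (-0.02) in KO changed sign. Other sign changes between conditions were Hspe1 in KO with left-out cells kept, thinning and equal Il1rl1 weights, and Hsp90ab1 in KO with thinning, all within 0.03 of 0. In KO, 0 members were higher with strict hashtags (beside 5.49% of genes), left-out cells kept (5.2%), Foxp3 cells (7.03%) and equal Il1rl1 weights (4.49%). In KO, 1 member was lower with strict hashtags (beside 5.15% of genes), thinning (7.9%), the mean of cells (6.3%) and equal Il1rl1 weights (4.68%). The NCD median of Il1rl1-positive against Il1rl1-zero cells (0.09) was 0.032 with thinning and 0.039 with the split after thinning. The causes were not tested. No paired analysis was possible because each condition is 1 pool.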

Other observations

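Heat shock transcripts were also counted in the droplets left out of the sums, in which Foxp3 and Il1rl1 were counted as well. Cells with 2 or more Lyz2 UMIs, a gene of myeloid cells, held the inducible pair Hspa1a and Hspa1b at 464 CPM in 25 KO cells (365 to 581) and 1102 CPM in 22 WT cells (953 to 1267), and at 38.3 CPM in 23 HFD cells (25.0 to 56.0) and 780.3 CPM in 139 NCD cells (739 to 823). Cells with 2 or more Cd79a UMIs held it at 459.5 CPM in 57 KO and 406 CPM in 94 WT cells, and at 218 CPM in 122 HFD and 381 CPM in 317 NCD cells. In the left-out cells of both kinds the pair was lower in HFD than in NCD cells. The Lyz2 cells of HFD had a median of 28405 UMIs and those of NCD of 12440. Il1rl1 stood at 4.41 CPM in HFD and 339 CPM in NCD Lyz2 cells, and Foxp3 at 4.41 CPM in HFD and 89.3 CPM in NCD Lyz2 cells. In the Cd79a cells Il1rl1 stood at 87.0 CPM in HFD and 204 CPM in NCD, and Foxp3 at 64.0 CPM in HFD and 64.2 CPM in NCD. The part of Treg RNA in these levels was not tested.

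With the same ranking run for the inducible pair alone, chosen after the values were seen, the genes most like it across cells were Fmn1 (r of 0.34 in KO, 0.23 in WT, 0.13 in HFD and 0.16 in NCD), Tex14 (0.25, 0.19, 0.12 and 0.16 in the same order of conditions), Txnip (0.31, 0.24, 0.10 and 0.27) and Klf6 (0.11, 0.09, 0.08 and 0.19). Jun (0.13, 0.07, 0.07 and 0.16) and Fos (0.13, 0.05, 0.07 and 0.10) came next. Klf6, Jun and Fos are on the early response list.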
